A study of Mus musculus with 4 samples.

Results

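The 40 genes described here mark blood vessels of the brain: endothelial cells, the barrier they form, and the pericytes and smooth muscle cells (mural cells) around them. They were taken by symbol from a deposited table of 22770 genes, and all 40 symbols matched 1 row each. The RNA was taken from mouse cortex dissected on embryonic day 16.5. The groups were 2 wild-type libraries, labelled as littermates, and 2 libraries of Pax6 sey/sey mutants, which lack a working copy of a transcription factor of cortical progenitors. Both groups shared a mixed background of the strains C57BL/6J, 129S6 and CD1. The Sey allele is carried in the germ line, so vessel cells of the mutants have it as well as neural cells. Pax6 RNA itself measured 28.8 and 27.0 FPKM in wild-type libraries against 101 and 120 in mutants. The mutation leaves a transcript, so this level does not check the labels. Beyond calling the wild types littermates, the labels do not say which libraries share a litter, and they tie no library to a single embryo. The main fit is therefore unpaired, and p-values measure only the spread between these libraries. In the wild types that spread may be technical, while the mutant libraries differ in Xist and Ddx3y, as given below.

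Vessels grow into the embryonic cortex from a plexus on its surface. Neural progenitors secrete VEGF-A and the Wnt ligands Wnt7a and Wnt7b, which act on receptors of endothelial cells and drive sprouting and barrier formation. Endothelial cells in turn release PDGF-B, which holds pericytes on the vessel wall through the receptor PDGFRβ. Tight junction proteins and membrane transporters then give brain vessels their barrier. Endothelial identity is kept by transcription factors of the ETS and SoxF families.

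The 40 members were sorted into 19 genes of endothelial identity, 6 angiogenic signals, 7 barrier and transport genes and 8 genes listed as mural. Values are FPKM, fragment counts scaled to exon length and to the mapped fragments of a library, so levels of different genes can be compared per length. None of the 40 was at 0 in any library, and 37 reached 0.5 FPKM in at least 2 libraries and were tested. The other 3 were Angpt2 (0.0297 to 0.322 FPKM), Esm1 (0.0528 to 0.223) and Acta2 (0.210 to 0.822), which rest on few fragments. They code for a vessel-destabilising ligand, a tip cell protein and smooth muscle actin. Not every member is made by vessels alone. VEGF-A is secreted by neural cells, and Cspg5 codes for a proteoglycan of neurons and glia, unlike the pericyte proteoglycan gene Cspg4. Both are described separately below, though the counts of their lists hold them unless stated.

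Mutant library 1 stood apart from the other 3 in ways that bear on these genes. It had 350 FPKM of Xist, an RNA of female cells, against 0.0788 to 0.224 elsewhere. For Ddx3y, a gene of the Y chromosome, it was listed at 0, against 16.5 to 23.3 FPKM elsewhere. Markers of meningeal fibroblasts, which lie on the cortical surface beside its largest vessels, were also highest in that library. Their summed level over 14 genes was 39.2 FPKM in mutant library 1 and 12.9 in mutant library 2, against 7.46 and 6.13 in the wild types. Of the 11 tested meningeal markers, 10 had both mutants above both wild types and 0 were called by limma (6 had an unadjusted p under 0.05). Of all tested genes 25.8% had both mutants above both wild types. Calls made up 3.48% of all tested genes, and 19.5% had an unadjusted p under 0.05. Col1a2, a fibrillar collagen gene, was 0.739 and 0.509 FPKM in wild-type libraries and 7.63 and 1.51 in the mutants. For Xist and Ddx3y mutant library 2 lay with the wild types, at 0.131 and 23.3 FPKM. Within mutant library 1 its genotype, its Xist and Ddx3y levels and its fibroblast markers cannot be told apart. The part of the fibroblast markers in the vessel results was not tested.

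Most vessel genes lay higher in the mutant libraries, but no member passed the test. Of the 37 tested members 0 were called by limma (adjusted p under 0.05, adjusted over all 15399 tested genes). Of all tested genes 3.48% were called, 2.02% higher and 1.46% lower in the mutants. At an unadjusted p under 0.05 there were 9 members, 7 higher and 2 lower, where the share of all tested genes was 19.5% (10.2% higher and 9.23% lower). Fold changes are differences of log2(FPKM + 0.5), mutant minus wild type, and understate the change of low genes. Their median was 0.32 over the 37 members and 0.00 over all tested genes, with 30 members above 0 and 7 below, where 50.1% of all tested genes lay above 0. The members' median was 0.16 without mutant library 1 and 0.47 without mutant library 2. In 20 members both mutants lay above both wild types, and in 3 both lay below, a total of 23 without overlap. Of all tested genes 51.6% had groups without overlap, 25.8% in each direction. The authors' deposited p-values for the 40 members ranged from 0.141 for Egfl7 to 1. In a comparison of 2 against 2 libraries an exact two-sided permutation test cannot give a p below 0.333. These are bulk samples, so more vessel cells and more RNA per vessel cell cannot be told apart.

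**Figure D1:**
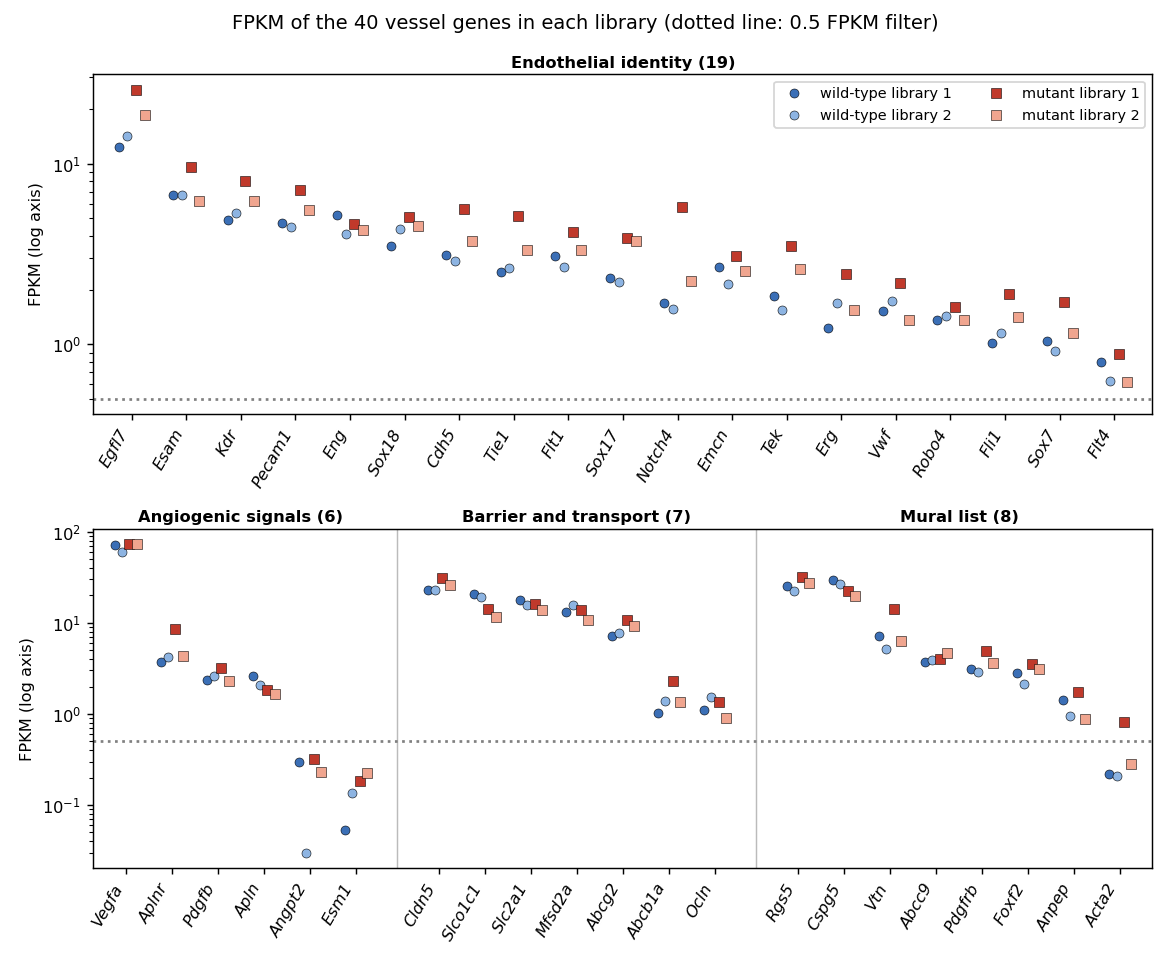
FPKM on a log axis of all 40 members in each library, with wild types as blue circles, Pax6 mutants as red squares and genes ordered by mean level within their group. Vegfa lies highest at 59.9 to 73.3 FPKM, mutant library 1 lies above mutant library 2 for nearly every gene, and Slco1c1 and Cspg5 lie lower in both mutants.

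Genes of endothelial identity had a median log2 fold change of 0.37. Of the 19 members, 18 were above 0, 12 had both mutants above both wild types and 0 had both below. Of all tested genes 50.1% were above 0 and 25.8% lay without overlap in each direction. Of the 19, 0 were called and 4 had an unadjusted p under 0.05, against 3.48% and 19.5% of all tested genes. Mutant library 1 was the highest of the 4 libraries for 18 of the 19, against 22.3% of all tested genes. Taken singly, mutant library 1 exceeded the wild-type mean by a median of 0.60 on the log2 scale and mutant library 2 by 0.19. The median was therefore 0.19 without mutant library 1 and 0.60 without mutant library 2.

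Tek codes for Tie2, the receptor of the angiopoietins (chromosome 4, 94739289 to 94874976, ENSMUSG00000006386). Its level was 1.85 and 1.54 FPKM in wild-type libraries and 3.49 and 2.61 in the mutants. The groups did not overlap, and the log2 fold change was 0.69 (SE 0.22, 95% interval 0.12 to 1.25, limma adjusted p = 0.191). Tie1, which codes for the partner receptor of Tie2, was 2.51 and 2.65 FPKM in wild-type libraries and 5.12 and 3.31 in the mutants. Both Tie receptor genes thus lay highest in mutant library 1 and next highest in mutant library 2.

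Sox17, a SoxF factor of endothelial and arterial cells (chromosome 1, 4490931 to 4497354, ENSMUSG00000025902), was the member of this group in which the mutant libraries were most alike. It was 2.33 and 2.22 FPKM in wild-type libraries and 3.85 and 3.74 in the mutants (log2 fold change 0.63, SE 0.16, limma adjusted p = 0.131). Sox17 shares exon bases with an annotated gene on the other strand, and strand use is not stated, so its value is uncertain. Sox18 was higher in level than Sox17 in each library and Sox7 was lower. Sox18 was 3.51 and 4.36 FPKM in wild-type libraries and 5.05 and 4.54 in the mutants, and Sox7 was 1.04 and 0.916 against 1.71 and 1.16. In all 3 SoxF genes the mutants lay above the wild types, by a margin smaller than the gap between the wild types in the case of Sox18.

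Egfl7, which codes for a secreted protein of endothelial cells, had the highest level of the group (chromosome 2, 26580014 to 26593120, ENSMUSG00000026921). It was 12.4 and 14.3 FPKM in wild-type libraries and 25.6 and 18.5 in the mutants (log2 fold change 0.69, SE 0.18, limma adjusted p = 0.127). It shares exon bases with 4 annotated genes, among them Agpat2 and the microRNA gene Mir126a, so its value is uncertain. Notch4, the endothelial Notch receptor gene, had the largest fold change of the members and also the widest spread between mutants. Notch4 was 1.69 and 1.56 FPKM in wild-type libraries, 5.79 in mutant library 1 and 2.25 in mutant library 2 (0.97, SE 0.41, limma adjusted p = 0.291). Without mutant library 1 the Notch4 difference from the wild-type mean was 0.37.

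The VEGF receptor genes were graded. Kdr, the main signalling receptor of VEGF-A, was 4.85 and 5.34 FPKM in wild-type libraries and 8.02 and 6.22 in the mutants. Flt1, a VEGF receptor that also acts as a decoy, was 3.09 and 2.66 FPKM in wild-type libraries and 4.19 and 3.34 in the mutants. Flt4, the receptor of VEGF-C, was the lowest of the tested members at 0.622 to 0.884 FPKM and overlapped between groups. Mutants lay above wild types for Kdr and Flt1, with limma adjusted p of 0.257 and 0.416.

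The junction genes Pecam1 and Cdh5 followed the same order of libraries. Pecam1 was 4.69 and 4.45 FPKM in wild-type libraries and 7.18 and 5.53 in the mutants, and Cdh5, which codes for VE-cadherin, was 3.12 and 2.88 against 5.64 and 3.71. Among the ETS factor genes, Fli1 was 1.02 and 1.15 FPKM in wild-type libraries and 1.91 and 1.43 in the mutants without overlap, while Erg was 1.23 and 1.70 against 2.45 and 1.55 with overlap. The remaining endothelial genes, Eng, Emcn, Esam, Vwf and Robo4, overlapped between the groups, with log2 fold changes of -0.04 to 0.19. Eng, an auxiliary TGF-beta receptor gene, was the single member of the group below 0, at 5.20 and 4.09 FPKM in wild-type libraries and 4.66 and 4.30 in the mutants. Eng shares exon bases with Fpgs on the other strand, so its value is uncertain.

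Angiogenic signals differed less. Vegfa (chromosome 17, 46016993 to 46032369, ENSMUSG00000023951) had the highest level of all members and was 70.8 and 59.9 FPKM in wild-type libraries and 73.3 and 72.6 in the mutants. Its log2 fold change was 0.16 (SE 0.09, 95% interval -0.08 to 0.40, limma adjusted p = 0.418), a difference smaller than the gap between the wild types. Pdgfb, the endothelial ligand for pericytes, was 2.36 and 2.59 FPKM in wild-type libraries and 3.21 and 2.28 in the mutants and overlapped. Apln, the apelin ligand gene of sprouting tip cells, lay on the X chromosome and went the other way, with 2.60 and 2.05 FPKM in wild-type libraries and 1.85 and 1.64 in the mutants (-0.33, limma adjusted p = 0.463). Its receptor gene Aplnr was 3.72 and 4.25 FPKM in wild-type libraries and 8.58 and 4.35 in the mutants. Mutant library 1 lay 1.02 above the wild-type mean of Aplnr on the log2 scale and mutant library 2 lay 0.11 above it (fold change 0.57, limma adjusted p = 0.409). Over the 4 tested signals the median was 0.14, and 0.01 without mutant library 1.

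Barrier and transport genes did not share the direction of the endothelial genes. Their median log2 fold change was -0.14 over 7 members, with 3 above 0 and 4 below, and 0 called. At an unadjusted p under 0.05 there were 2 higher (Cldn5 and Abcg2) and 1 lower (Slco1c1). Of all tested genes 10.2% were higher and 9.23% lower at that threshold. The sign of this median was not stable: it was 0.02 without mutant library 2 and -0.24 without mutant library 1.

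Slco1c1 codes for a carrier of thyroid hormone at the blood-brain barrier that glial cells also express (chromosome 6, 141524368 to 141570177, ENSMUSG00000030235). It was 20.6 and 19.5 FPKM in wild-type libraries and 14.1 and 11.7 in the mutants. Both mutants lay below both wild types, with a log2 fold change of -0.62 (SE 0.12, 95% interval -0.93 to -0.31) and the smallest limma adjusted p of all members, 0.0687. Slc1a3, a glutamate transporter gene of radial glia named after its values were seen, was 34.5 and 31.2 FPKM in wild-type libraries and 23.8 and 19.5 in the mutants (-0.60, limma adjusted p = 0.0786). Of the 8 progenitor markers to which Slc1a3 belongs it lay lowest: 6 were above 0, 3 rose, and the median was 0.30. Of all tested genes 2.02% rose. Whether the Slco1c1 difference lies in vessels or in glia was not tested.

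Cldn5, the main tight junction gene of brain vessels (chromosome 16, 18776847 to 18778262, ENSMUSG00000041378), was 22.7 FPKM in each wild type and 31.0 and 26.3 in the mutants. Its log2 fold change was 0.32 (SE 0.10, 95% interval 0.06 to 0.59, limma adjusted p = 0.190). Abcg2, a drug efflux pump gene, was 7.20 and 7.68 FPKM in wild-type libraries and 10.7 and 9.24 in the mutants (0.40, SE 0.13, limma adjusted p = 0.196). These 2 genes thus lay with the endothelial genes, above the wild types in both mutants. Abcb1a, which codes for P-glycoprotein, was 1.02 and 1.38 FPKM in wild-type libraries and 2.33 and 1.35 in the mutants, with overlap.

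Mfsd2a, the lipid transporter that limits transcytosis in brain endothelium, was 13.0 and 15.8 FPKM in wild-type libraries and 14.0 and 10.7 in the mutants. The glucose transporter gene Slc2a1 was 17.6 and 15.5 FPKM in wild-type libraries and 16.1 and 14.0 in the mutants, and the occludin gene Ocln was 1.12 and 1.53 against 1.34 and 0.904. All 3 overlapped between the groups, at log2 fold changes of -0.22, -0.14 and -0.17. Set beside the endothelial genes of the same library, the barrier genes were lower in both mutants. Taken alone, their mean log2 level differed from the wild-type mean by 0.16 in mutant library 1 and by -0.16 in mutant library 2. For the endothelial genes these differences were 0.58 and 0.18. The mean log2 level of the 7 barrier genes exceeded that of the 19 endothelial genes by 1.39 and 1.51 in the wild types and by 1.03 and 1.10 in the mutants. Some other lists were lower beside the endothelial genes too. The same difference was 1.21 and 1.17 in the wild types and 0.93 and 0.95 in the mutants for the angiogenic signals, and 1.10 and 0.90 against 0.83 and 0.85 for the mural list. In the mural list the change of -0.16 was smaller than the gap of 0.20 between the wild types. For the vessel basement membrane genes the difference was 1.56 and 1.43 against 1.28 and 1.20. For the further endothelial genes it was -0.36 and -0.43 against -0.45 and -0.40, with overlap. The meningeal fibroblast markers went the other way, with -1.53 and -1.68 against -0.55 and -1.18. These differences were given no test, because the members were chosen with earlier results known.

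**Figure D2:**
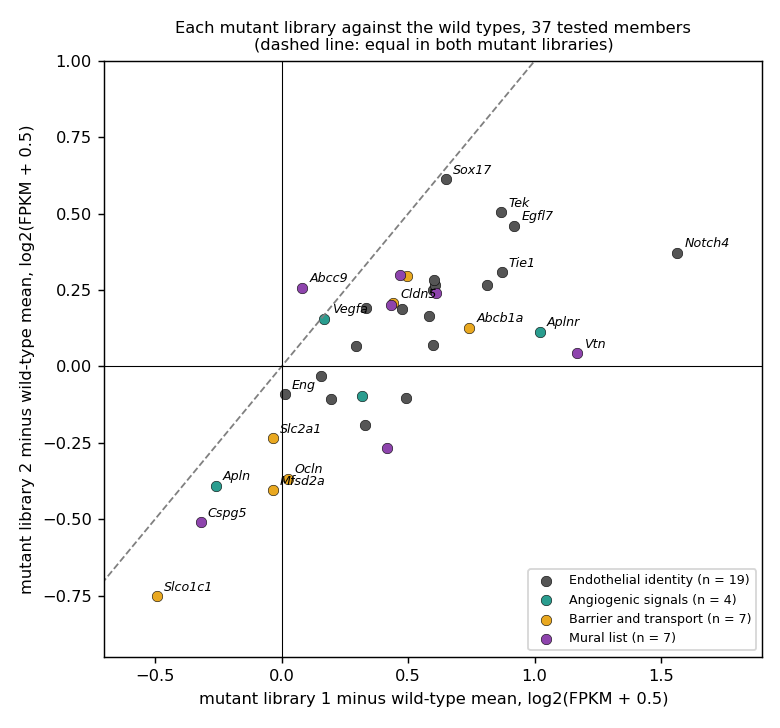
Difference of each mutant library from the wild-type mean on the log2(FPKM + 0.5) scale for the 37 tested members, with library 1 on the horizontal axis, library 2 on the vertical axis and colour by group. All points but that of Abcc9 lie below the dashed line of equality, and Slco1c1 lies lowest at -0.49 and -0.75.

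Promoter sequences of 4 of these genes are shown because they span the patterns seen. Tek, Notch4 and Cldn5 lay above the wild types in both mutants, and Slco1c1 lay below them. RefSeq promoter entries (GRCm38.p6) were found for 27 of the 40 members. The 250 bases before the annotated start are printed on the strand of the gene. Capitals mark matches, on either strand, to the ETS core AGGAAG or CGGAAG and to the SOX core ACAATG or ACAAAG, the binding letters of the families of Erg and Fli1 and of Sox7, Sox17 and Sox18.
Tek, chr4:94739039-94739288, plus strand: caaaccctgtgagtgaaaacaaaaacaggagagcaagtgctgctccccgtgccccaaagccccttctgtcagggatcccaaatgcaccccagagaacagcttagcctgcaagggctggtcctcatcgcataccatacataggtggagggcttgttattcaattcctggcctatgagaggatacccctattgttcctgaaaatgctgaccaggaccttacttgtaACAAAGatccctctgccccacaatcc
Notch4, chr17:34564045-34564294, plus strand: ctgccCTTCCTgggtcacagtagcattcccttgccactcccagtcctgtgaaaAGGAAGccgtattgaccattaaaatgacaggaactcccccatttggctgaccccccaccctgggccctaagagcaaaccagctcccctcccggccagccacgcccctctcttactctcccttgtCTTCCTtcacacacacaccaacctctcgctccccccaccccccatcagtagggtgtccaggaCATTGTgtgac
Cldn5, chr16:18776597-18776846, plus strand: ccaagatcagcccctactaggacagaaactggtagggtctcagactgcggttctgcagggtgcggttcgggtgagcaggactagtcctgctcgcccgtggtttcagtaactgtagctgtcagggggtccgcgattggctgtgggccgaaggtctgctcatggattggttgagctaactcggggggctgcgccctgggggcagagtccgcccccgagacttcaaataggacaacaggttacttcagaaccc
Slco1c1, chr6:141524104-141524353, plus strand: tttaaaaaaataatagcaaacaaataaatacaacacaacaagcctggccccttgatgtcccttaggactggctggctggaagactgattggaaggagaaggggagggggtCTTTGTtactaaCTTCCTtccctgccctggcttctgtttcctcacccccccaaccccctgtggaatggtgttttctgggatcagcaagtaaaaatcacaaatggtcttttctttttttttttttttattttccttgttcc
The Notch4 window holds 3 ETS matches and 1 SOX match, Slco1c1 1 of each, Tek 1 SOX match and Cldn5 none. An ETS match was found for 13 of the 27 members (48.1%) and for 42.5% of all genes with an entry, and a SOX match for 9 of the 27 (33.3%) and 28.2% of all genes. Of the 11 endothelial identity genes with an entry, 8 held an ETS match, as did 3 of 7 barrier genes, 1 of 6 mural genes and 1 of 3 angiogenic signals. A gene was counted if any of its promoters held a match, and Egfl7, for example, has 3 promoters. Per promoter sequence the ETS share was 45.7% for members and 39.2% for all, and the SOX share was 25.7% and 25.2%. Matches of the cores can overlap each other in principle, though none does in the sequences printed, and a match is no measure of binding.

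The median of the mural genes lay between those of the endothelial and the barrier genes, but its order with the endothelial median was not stable. Without mutant library 1 the mural and endothelial medians were 0.20 and 0.19, and without wild-type library 1 they were 0.41 and 0.38. Of the 8 mural genes listed, 7 were tested, 6 were above 0 and 0 were called, with a median of 0.32 that was 0.20 without mutant library 1. These counts hold Cspg5, the one below 0. The other 6 tested genes had a median of 0.35, which was 0.22 without mutant library 1. Rgs5, a regulator of G protein signalling and a pericyte marker (chromosome 1, 169655501 to 169695813, ENSMUSG00000026678), was 25.2 and 22.3 FPKM in wild-type libraries and 32.2 and 27.3 in the mutants. Its log2 fold change was 0.32 (SE 0.12, 95% interval 0.02 to 0.61, limma adjusted p = 0.232). Pdgfrb, the receptor that keeps pericytes on vessels, was 3.15 and 2.92 FPKM in wild-type libraries and 4.89 and 3.67 in the mutants (0.43, SE 0.19, limma adjusted p = 0.319). In both genes the mutants lay above the wild types without overlap.

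Foxf2, a transcription factor gene of brain pericytes, was 2.82 and 2.11 FPKM in wild-type libraries and 3.57 and 3.12 in the mutants. Abcc9, a potassium channel subunit gene, was 3.68 and 3.90 FPKM in wild-type libraries and 4.04 and 4.63 in the mutants. It was the single tested member with a higher value in mutant library 2 than in mutant library 1. The order of mutant library 1 above mutant library 2 held for the other 36 of 37, against 49.9% of all tested genes. Abcc9 and Foxf2 each share exon bases with an annotated gene on the other strand, so their values are uncertain. Vtn, which codes for the matrix protein vitronectin, was 7.16 and 5.16 FPKM in the wild types, 14.3 in mutant library 1 and 6.28 in mutant library 2. Anpep, an aminopeptidase gene of pericytes, was 1.41 and 0.952 FPKM in wild-type libraries and 1.72 and 0.882 in the mutants. Vtn and Anpep overlapped between the groups, with log2 fold changes of 0.60 and 0.07. In mutant library 2 Vtn lay between the wild types and Anpep lay below both.

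Cspg5 went against the other genes of the mural list. It was 29.3 and 27.0 FPKM in wild-type libraries and 22.4 and 19.6 in the mutants (log2 fold change -0.42, SE 0.10, 95% interval -0.67 to -0.16, limma adjusted p = 0.114). Of the 8 neuronal markers 7 were below 0 and 3 fell, where 1.46% of all tested genes fell. Their median was -0.19 and their lowest value -0.93. Rbfox3, a splicing factor of neurons among these 3, fell by 0.93 on the log2 scale (limma adjusted p = 0.0281), from 24.5 FPKM in each wild type to 13.8 and 11.5 in the mutants. Progenitor markers went the other way, with 6 of 8 above 0 and a median of 0.30. Whether the Cspg5 difference lies in neurons, in glia or in vessels was not tested. The pericyte proteoglycan gene Cspg4 was 1.35 and 1.19 FPKM in wild-type libraries and 1.20 and 0.903 in the mutants.

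Further vessel genes came from lists that hold no member. Together with the pathway and hypoxia lists below, 115 of these genes were tested and 4 were called, against 3.48% of all tested genes. At an unadjusted p under 0.05 there were 22 of the 115, where the share of all tested genes was 19.5%. Of 18 further endothelial genes, all tested, 16 were above 0 with a median of 0.40, and 1 rose. The median was 0.14 without mutant library 1. The gene that rose was Ets1, an ETS factor of endothelial and other cells, at 6.23 and 6.19 FPKM in wild-type libraries and 12.5 and 14.1 in the mutants (log2 fold change 1.04, SE 0.12, limma adjusted p = 0.0262). Unlike most vessel genes, Ets1 was higher in mutant library 2 than in mutant library 1. Cd34, an endothelial surface sialomucin gene, was 7.45 and 6.21 FPKM in wild-type libraries and 9.37 and 9.04 in the mutants (limma adjusted p = 0.203). Over 18 tested further barrier genes the median was 0.06 with 0 called (3 at an unadjusted p under 0.05). Lrp8, a lipoprotein receptor gene also made by neurons, was 85.5 and 86.1 FPKM in wild-type libraries and 70.3 and 70.5 in the mutants (limma adjusted p = 0.0698). Igf1r, a growth factor receptor gene, was 15.1 and 14.9 FPKM in wild-type libraries and 17.9 and 20.8 in the mutants (limma adjusted p = 0.170).

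Among 17 further mural genes 13 were tested, with a median of 0.09, and 1 fell. This was Gucy1a1, a subunit of soluble guanylate cyclase that neurons express as well, at 75.6 and 72.3 FPKM in wild-type libraries and 53.0 and 51.1 in the mutants (log2 fold change -0.50, SE 0.06, limma adjusted p = 0.0305). Its partner subunit gene Gucy1b1 was 39.5 and 42.6 FPKM in wild-type libraries and 26.2 and 30.8 in the mutants (-0.52, limma adjusted p = 0.0733). These levels are well above those of Pdgfrb, though the levels of Gucy1b1 overlap those of Rgs5, at 22.3 to 32.2 FPKM. The share of the RNA that comes from pericytes was not tested. Kcnj8 and Higd1b, which are more restricted to pericytes and were named after their values were seen, had log2 fold changes of 0.14 and -0.01. Of the 13 tested genes of the list 7 were above 0 and 6 below. The 12 vessel basement membrane genes had a median of 0.16 with 0 called (0 at an unadjusted p under 0.05), and all 12 were higher in mutant library 1 than in mutant library 2. The median turned to -0.12 without mutant library 1. Nid1, a basement membrane linker gene, was 4.78 and 5.06 FPKM in wild-type libraries and 8.65 and 5.90 in the mutants, and the laminin gene Lama4 was 3.21 and 2.63 against 4.48 and 3.90.

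**Figure D3:**
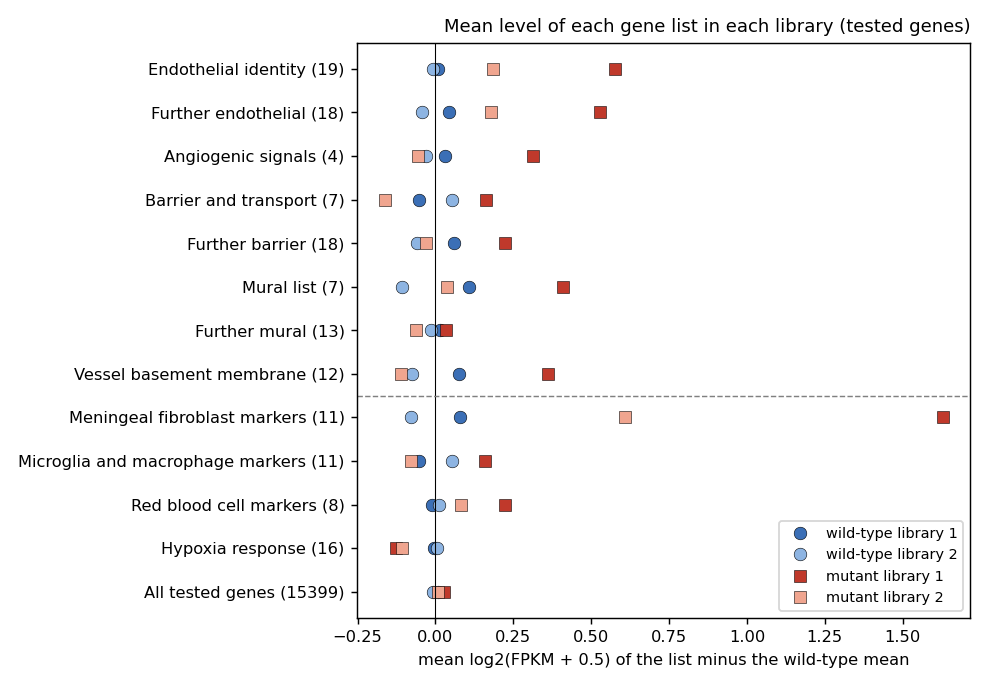
Mean log2(FPKM + 0.5) of the tested genes of each list in each library, minus the mean of the wild types, with vessel lists above the dashed line and other lists below it. Mutant library 1 lies at 0.58 and mutant library 2 at 0.18 for endothelial identity, and at 1.63 and 0.61 for the meningeal fibroblast markers.

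Markers of other cell types did not all follow the vessel genes. The summed level of 15 microglia and macrophage markers was 29.1 and 32.3 FPKM in wild-type libraries and 35.4 and 27.3 in the mutants, and Cd163 was listed at 0 in both wild types. Of the 11 tested markers 7 were above 0 and 4 below, with a median of 0.14. Of these markers 0 were called and 2 had an unadjusted p under 0.05, against 3.48% and 19.5% of all tested genes. Those 2, Aif1 and P2ry12, which mark microglia, lay lower in both mutants: Aif1 was 4.44 and 5.95 FPKM in wild-type libraries and 2.78 and 3.01 in the mutants, and P2ry12 was 4.58 and 6.00 against 2.56 and 3.59 (limma adjusted p = 0.134 and 0.194). Lyve1 and Mrc1, which mark macrophages at the brain's borders and were named after their values were seen, were highest in mutant library 1. Lyve1 was 1.44 FPKM there and 0.0652 to 0.138 elsewhere, and Mrc1 was 1.95 there and 0.179 to 0.491 elsewhere. Red blood cell RNA, a measure of blood left in the vessels, differed little, with 11 markers summing to 1560 and 1729 FPKM in wild-type libraries and 1818 and 1749 in the mutants. Choroid plexus markers were near 0, with a sum over 10 genes of 2.68 to 5.15 FPKM. The part of these cell types in the vessel values was not tested.

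Next come the ligands and receptors through which vessels and neural cells signal. In the list of 22 VEGF, angiopoietin and Notch pathway genes 20 were tested and 1 rose, with a median of 0.02. This was Nrp2, a co-receptor of VEGF-C and of semaphorins that interneurons also carry, at 3.53 and 2.72 FPKM in wild-type libraries and 8.54 and 7.07 in the mutants (log2 fold change 1.20, SE 0.19, limma adjusted p = 0.0435). Its relative Nrp1, a co-receptor of VEGF-A, was named after its values were seen. Nrp1 was 36.6 and 41.2 FPKM in wild-type libraries and 27.6 and 18.9 in the mutants (-0.75, limma adjusted p = 0.122). These levels are well above those of Kdr, and the share of the Nrp1 RNA that comes from vessels was not tested. Cxcr4, a chemokine receptor gene of interneurons and endothelium, was 30.0 and 26.1 FPKM in wild-type libraries and 39.6 and 41.3 in the mutants (0.52, limma adjusted p = 0.0587). Angpt1, the activating ligand of Tie2, was named after its values were seen: it was 0.965 and 0.725 FPKM in wild-type libraries and 2.86 and 2.45 in the mutants (1.23, SE 0.22, limma adjusted p = 0.0610). Nrp2 and Angpt1 thus lay well above the wild types in both mutants, Nrp1 below them.

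In the list of 18 genes of Wnt signalling to brain vessels 0 were called (5 had an unadjusted p under 0.05, 4 of them higher). Of all tested genes 19.5% had an unadjusted p under 0.05, with 10.2% higher in the mutants. The median of the list was 0.21, and -0.02 without mutant library 1. Wnt7a was 7.83 and 5.93 FPKM in wild-type libraries and 11.9 and 12.1 in the mutants (log2 fold change 0.77, SE 0.16, limma adjusted p = 0.0803). Wnt7b was 60.6 and 53.9 FPKM in wild-type libraries and 32.1 and 40.9 in the mutants (-0.65, SE 0.14, limma adjusted p = 0.0814). The paired ligands thus differed in opposite directions, and Wnt7b was the higher of them in each of the 4 libraries. Their endothelial co-receptor genes Reck and Adgra2, named after their values were seen, were both above the wild types without being called. Reck was 2.47 and 2.13 against 3.12 and 5.01 FPKM (limma adjusted p = 0.247). Adgra2 was 1.47 and 1.35 against 3.72 and 2.12 (limma adjusted p = 0.222). Reck was higher in mutant library 2 and Adgra2 in mutant library 1.

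Low oxygen is a stimulus for vessel growth and induces a set of target genes. Of 16 tested genes 12 were below 0, 1 fell and 0 rose, with a median of -0.18. Ndrg1, a stress response gene, fell from 59.1 and 60.9 FPKM to 38.6 and 38.9 (log2 fold change -0.62, SE 0.06, limma adjusted p = 0.0197). Ankrd37, another target of the hypoxia factor, was 4.01 and 2.68 FPKM in wild-type libraries and 7.87 and 7.81 in the mutants (1.14, limma adjusted p = 0.0618), against the direction of the list. Without mutant library 1 the medians of the VEGF, angiopoietin and Notch list, the further barrier genes, the further mural genes and the microglia and macrophage markers turned to -0.03, -0.06, -0.04 and -0.09. The calls of Ets1, Nrp2, Gucy1a1 and Ndrg1 were each lost when any 1 library was left out.

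**Figure D4:**
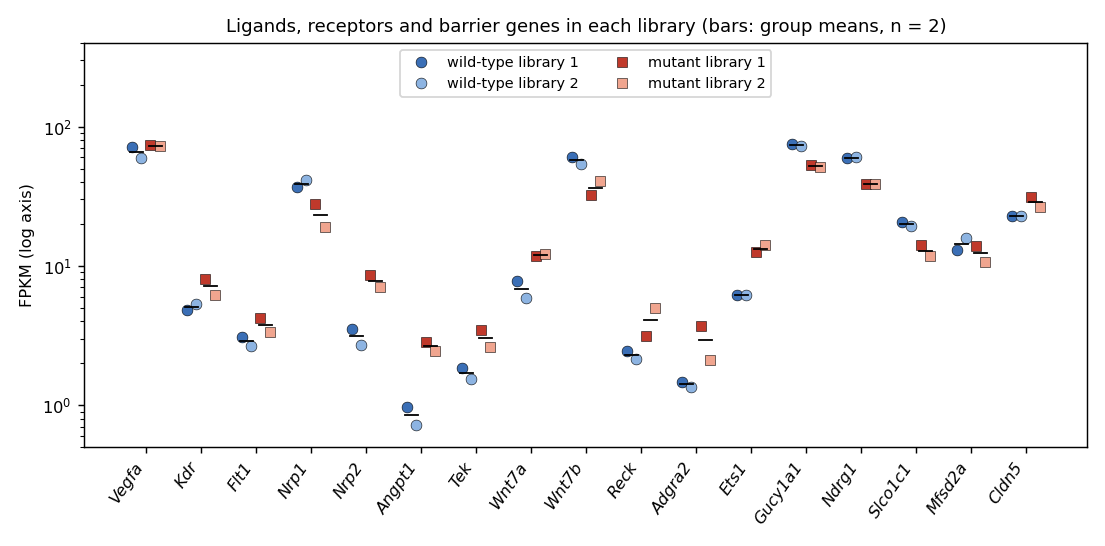
FPKM on a log axis of 17 ligand, receptor, pathway and barrier genes in each library, with wild types as circles, mutants as squares and black bars at the group means (n = 2). Wnt7a lies higher and Wnt7b lower in both mutants, while Vegfa lies at 59.9 to 73.3 FPKM throughout.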

How the data were processed

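RNA was sequenced from embryonic mouse cortex in 2 wild-type and 2 Pax6 sey/sey libraries. The authors deposited 1 table with an FPKM value for each gene and library, per the file headers, and with a ratio of group FPKM and a p-value whose test is not stated. Cufflinks 2.2.1, TopHat2 2.0.9, edgeR and the builds mm10 and GRCm38.p4 are listed, per the submitters' processing notes, without their roles. RNA selection and strand use are not given in the sources used here.

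Column totals were 579698 to 593256 FPKM. FPKM keeps no fragment totals. Relative to wild-type library 1, the lowest genes gave a depth of 0.783 for the other wild type and of 0.866 and 1.19 for mutants 1 and 2, and about 1 fragment in a gene with 2 kb of exon was worth 0.0456 to 0.0714 FPKM.

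Genes at 0.5 FPKM or more in 2 libraries (15399) were tested with limma 3.58.1 (R 4.3.3) on log2(FPKM + 0.5) with a mean-variance trend, two-sided, and p was adjusted by the Benjamini-Hochberg method across these genes. The code was tested on simulated data. It called 8% of simulated 1.5-fold changes, 30% of 2-fold and 80% of 4-fold changes, and 9 of 112 calls were false. A count of 0 called is therefore no sign that small changes are absent. Lists were matched by Ensembl identifier to symbols (22599 of 22770 matched), and coordinates are GENCODE M21 on GRCm38, counted from 1. Among the members 7 share exon bases with another annotated gene: Eng, Egfl7, Sox17, Slc2a1, Abcb1a, Abcc9 and Foxf2. Their values are uncertain for that reason. Values in every library are given for called members, the 3 of smallest p and the highest of each member group, Vegfa and Cspg5, and for called genes and the 2 of smallest p of each pathway list. Further members are given to account for all 40. The members, lists and tests were chosen with earlier results of these data known. Alternatives were other pseudocounts, filters, scalings, no trend, a replicate block and leaving out each library.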

Additional observations from a re-analysis of the deposited data

How the results depend on the processing

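The count of called members was 0 under every alternative run, with 3 to 17 members at an unadjusted p under 0.05, fewest without mutant library 1 and most without mutant library 2. Over all genes, 536 calls became 54 without a trend, 61 with no filter, and 7 to 59 when 1 library was left out, which leaves 1 library in a group whose spread is assumed to be that of the other group. The 4 calls among pathway and further vessel genes became 0 with no filter, 0 without the trend, and 0 to 0 when 1 library was left out. The cause of the losses without the trend was not tested. The median log2 fold change of the endothelial genes ranged from 0.19 to 0.60 over the left-out libraries. With the replicate number as a block, 374 genes, 0 members and the same 4 pathway genes were called. Replicate numbers share no stated litter or day, and the deviations of same-numbered libraries correlated at 0.049. Values near 0.5 FPKM or below rest on few fragments in genes of ordinary length, which limits Angpt2, Esm1 and Acta2. Flt4 was low as well, at 0.622 to 0.884 FPKM, but over 8232 exon bases this level holds more fragments.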
